A study of Mus musculus with 2 samples.

Results

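The cells described here are Umod-low Slc12a1 cells of newborn mouse kidney, barcodes with at least 5 Slc12a1 UMIs and under 3 Umod UMIs per 10000 UMIs. They numbered 160 of the 9227 barcodes kept by a filter on depth (1000 UMIs or more), detected genes (500 or more) and mitochondrial share (no more than 20% of UMIs), 69 of 5040 in the library labelled Flcn KO and 91 of 4187 in the library labelled Flcn WT. The study profiled kidneys at postnatal day 0 by droplet single-cell RNA-seq counted at the 3′ end of transcripts, in 1 library for each genotype. UMIs are molecular tags that count transcripts. The KO library came from Six2Cre Flcn flox/flox mice and the WT library from Six2Cre Flcn flox/+ mice, so both carried the Cre and at least 1 floxed Flcn allele. Six2Cre acts in nephron progenitors and so in the nephron epithelium that descends from them. Neither the number of animals nor pooling is given in the sources used here, and the tissue is labelled as embryonic kidney. With 1 library per genotype no difference between KO and WT has a replicate check, no test across samples was possible, and every interval below is a 95% interval for counting error alone.

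The loop of Henle is the hairpin segment of the nephron that builds the salt gradient of the medulla. Its thick ascending limb takes up salt through NKCC2, the cotransporter encoded by Slc12a1, and secretes uromodulin, the product of Umod. At the end of the limb lies the macula densa, a plaque of NKCC2-positive cells that senses tubular salt, signals to the glomerulus through nitric oxide and prostaglandins, and makes little uromodulin. Folliculin, the product of Flcn, acts on the lysosome with FNIP1 or FNIP2 as a GTPase-activating protein for RagC and RagD, and this lets mTORC1 restrain TFEB and TFE3, transcription factors of lysosomal genes.

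The KO library held 5991 barcodes with 149679281 UMIs and the WT library 5572 barcodes with 147390790 UMIs. The member cells had a median of 29623 UMIs (1123 to 215273) in KO and 45165 UMIs (1236 to 206037) in WT. A further 56 KO and 110 WT barcodes met the Slc12a1 and Umod limits but failed the cell filter, 44 and 71 of them through mitochondrial UMIs. The libraries shared 5 barcode sequences, none of them of a member cell. Flcn itself had 33 UMIs in KO and 47 in WT member cells (gene at chr11:59791408-59810016, minus strand, GRCm38), which gave 1.11 (0.691 to 1.78) as KO over WT of CPM, the gene's UMIs scaled to a common total of nuclear-encoded UMIs. Which exon is deleted is not given in the labels, so these 3′ counts do not check the deletion.

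Members were chosen by their Slc12a1 and Umod values, which are therefore a description. Their Slc12a1 level ran from 5.47 to 112.1 per 10000 UMIs with a median of 25.2 in KO cells, and from 5.21 to 215.7 with a median of 60.7 in WT cells. In Umod-positive Slc12a1 cells, 167 in KO and 96 in WT, the medians were 42.4 and 63.9. No Umod UMI was seen in 32 KO and 44 WT members. Just inside the Umod limit, at 2 to 3 per 10000, lay 4 KO and 9 WT members, and just outside it, at 3 to 4, lay 7 KO and 3 WT cells. At 5 to 6 Slc12a1 UMIs per 10000 there were 3 KO and 1 WT members, and at 4 to 5, outside the rule, 0 KO and 8 WT cells. The Umod-low cells were 1.37% of kept barcodes in KO (exact Clopper-Pearson interval 1.07 to 1.73%) and 2.17% in WT (1.75 to 2.66%). Of all Slc12a1 cells they were 29.2% in KO (23.5 to 35.5%) and 48.7% in WT (41.3 to 56.1%).

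**Figure D1:**
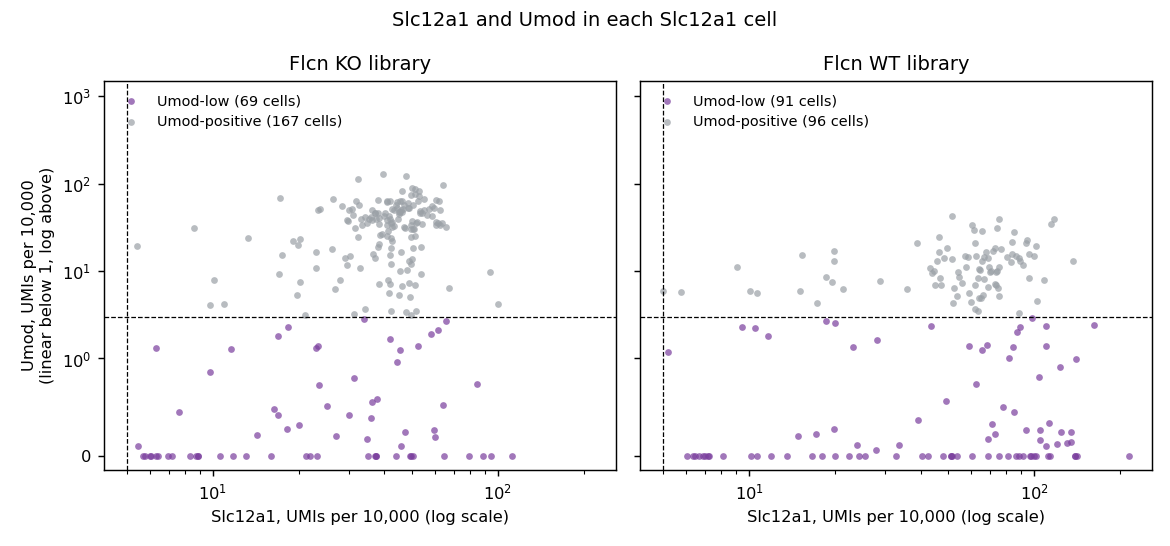
Each point is a Slc12a1 cell, by its Slc12a1 (x axis, log scale) and Umod (y axis, linear below 1 and log above) UMIs per 10000, in the KO (left) and WT (right) library, with dashed lines at the limits of the rule. Umod-low cells (69 KO, 91 WT) lie under the line at 3, and many have no Umod UMI (32 KO, 44 WT).

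Not every member was a clean loop of Henle cell. At least 3 of the markers Slc12a1, Ptger3, Esrrb and Kcnj1 had a UMI in 46 of 69 KO and 61 of 91 WT members, against 163 of 167 KO and 93 of 96 WT Umod-positive cells. By the rule all of these cells had Slc12a1, so the count rests on the other markers. Depth was not matched here. The median was 29623 UMIs in Umod-low and 55839 in Umod-positive cells in KO, and 45165 and 44373.5 in WT. Only 1 or 2 Slc12a1 UMIs stood behind 9 KO and 9 WT members, and 13 and 14 members had under 5000 UMIs. Markers of another cell type reached 10 UMIs per 10000 in 15 KO members, 8 of them through stroma and 3 through neutrophil genes. They did so in 12 WT members, 7 of them through proximal tubule genes. The lists used for this were proximal tubule, stroma, mural, endothelium, macrophage and immune, neutrophil and erythroid. Distal tubule, podocyte, ureteric and collecting duct, intercalated and nephron progenitor lists were not used, so cells were not left out for those markers. Ureteric and collecting duct genes reached the same limit in 4 WT members, and intercalated and nephron progenitor genes each in 1 KO and 1 WT member. Scrublet scores, cut at the expected share of doublets, marked 4 KO and 10 WT members. Several values below rest on cells with markers of another type and are given without them too.

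The label immature was set against the cell cycle and against genes of early nephron structures. Neither the mitosis nor the DNA replication genes were uniformly higher than in Umod-positive cells. The median log2 ratio of Umod-low over Umod-positive cells was -0.12 in KO and -1.25 in WT for 24 mitosis genes, and 0.40 in KO and -1.20 in WT for 22 DNA replication genes. In KO 1 of the 24 mitosis genes was at least 1.5-fold lower, where 9.94% of 15848 genes with at least 10 UMIs were, and in WT 23 of 24, where 10.4% of 15884 were. Genes of early nephron structures stood higher in both libraries, with medians of 1.84 in KO and 0.66 in WT. Of 16 of them with at least 10 UMIs in each library, 9 were at least 1.5-fold higher in both, against 12.1% of 15040 genes. Other lists stood higher in both libraries too. Distal tubule genes did in 7 of 10 cases, with 1 lower, and nephron progenitor genes in 5 of 6. Stroma genes did in 5 of 7 and mural genes in 4 of 6, but podocyte and endothelial genes in 0 of 7 each. These values include the members with markers of another type. Among the early genes was Sox9, a transcription factor of the early distal nephron, at 105 CPM in KO and 105.2 CPM in WT Umod-low cells, against 3.08 and 6.15 CPM in Umod-positive cells (ratios 34.1 and 17.1). Since the cell cycle and early nephron genes went both ways, the cells are called Umod-low Slc12a1 cells.

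The markers fixed for the loop of Henle other than Slc12a1 were lower in the Umod-low cells. Ptger3, a prostaglandin E2 receptor of the thick limb, stood at 0.436 (0.412 to 0.462) of the Umod-positive level in KO and 0.420 (0.384 to 0.460) in WT. Esrrb, an orphan nuclear receptor, was at 0.332 in KO and 0.320 in WT, and Kcnj1, the ROMK potassium channel, at 0.518 and 0.561. In CPM, Ptger3 had 435 in KO and 136 in WT Umod-low cells, Esrrb 66.5 and 73.3, and Kcnj1 180.8 and 210.5. All of these are far above endothelium, which should lack them and had at most 1.77 CPM of any of the 3. After thinning every cell to 3000 UMIs, a Ptger3 UMI occurred in 42.6% of the 61 KO and 21.5% of the 79 WT Umod-low cells deep enough for it, and in 1.34% of 523 KO and 0.299% of 334 WT endothelial cells at median depths of 25394.5 and 23604.5 UMIs. Without thinning a Ptger3 UMI was present in 72.5% of KO and 52.7% of WT Umod-low cells.

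Macula densa genes were higher in Umod-low cells. The split uses Umod in these same cells, so Umod-low against Umod-positive is a description throughout, with no test. Of its 9 genes, 8 had at least 10 UMIs in each library and all 8 were at least 1.5-fold higher than in Umod-positive cells in both, as were 12.1% of 15040 genes (25.4% in KO and 24.2% in WT taken alone). The ninth, the oxytocin receptor gene Oxtr, had 0 UMIs in KO and 6 in WT Umod-low cells, against 1 and 16 in Umod-positive cells (0.456, 0.146 to 1.23, in WT). The median log2 ratios were 2.94 in KO, over 8 genes, and 3.39 in WT, over 9. Over all genes the medians were 0.18 and 0.15. Pappa2, a metalloprotease that cleaves insulin-like growth factor binding proteins and marks the macula densa, had 484 CPM in KO and 1187 CPM in WT Umod-low cells, against 10.9 and 63.7 CPM in Umod-positive cells. These are ratios of 44.5 (36.5 to 54.7) in KO and 18.6 (16.8 to 20.7) in WT. Nos1, the neuronal nitric oxide synthase, had 48 UMIs in 69 KO and 299 UMIs in 91 WT Umod-low cells, against 4 and 7 UMIs in Umod-positive cells. Ptgs2, cyclooxygenase-2, was 5.21-fold higher in Umod-low cells in KO and 10.6-fold in WT. Robo2, a Slit receptor, was 2.56-fold higher in KO and 13.8-fold in WT.

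The other genes that ranked highest in Umod-low over Umod-positive cells came from several families. Nrxn3, a neurexin, was 28.3-fold higher in KO and 64.9-fold in WT, Bmper, a BMP-binding protein, 43.0-fold and 146-fold, and Ntrk3, a neurotrophin receptor, 215-fold and 26.7-fold. In KO 1 cell held 50.3% of Nrxn3 and 62.7% of Bmper UMIs. Endothelial cells themselves had 68.4 CPM of Nrxn3 in KO and 30.0 CPM in WT. Bmpr1b, a BMP receptor, was more even, at 9.58-fold in KO and 10.3-fold in WT with UMIs in 56.5% and 44.0% of cells. Ptprt, a receptor phosphatase, was at 27.4-fold and 15.1-fold, Slc27a6, a fatty acid transport protein, at 18.7-fold and 16.8-fold, Galntl6 at 83.0-fold and 11.9-fold, and Gfra1, the GDNF co-receptor, at 8.35-fold and 13.1-fold. In all, 843 of 11220 genes with at least 50 UMIs in each library (7.51%) were at least 1.5-fold higher in both, and 304 (2.71%) were lower.

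The genes that ranked lowest in Umod-low cells differed in function. Ckb, brain-type creatine kinase, had 98.1 CPM in KO and 30.3 CPM in WT Umod-low cells, against 734 and 172 CPM in Umod-positive cells (ratios 0.134 and 0.176). Lpl, lipoprotein lipase, was at 0.118 in KO and 0.228 in WT, and Acsl1, which activates long-chain fatty acids, at 0.349 and 0.354. Plau, urokinase, was at 0.189 and 0.131, Wnt7b, a Wnt ligand, at 0.187 and 0.194, Pak6, a p21-activated kinase, at 0.203 and 0.290, and Sim2, a transcription factor, at 0.319 and 0.366. The cyclic nucleotide enzymes Pde1a (0.167 and 0.350) and Adcy1 (0.342 and 0.317) were lower too. Of 26 nuclear-encoded respiratory chain genes 16 were at least 1.5-fold lower in both libraries, against 2.85% of all 15040 genes, with medians of -0.75 in KO and -0.68 in WT.

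**Figure D2:**
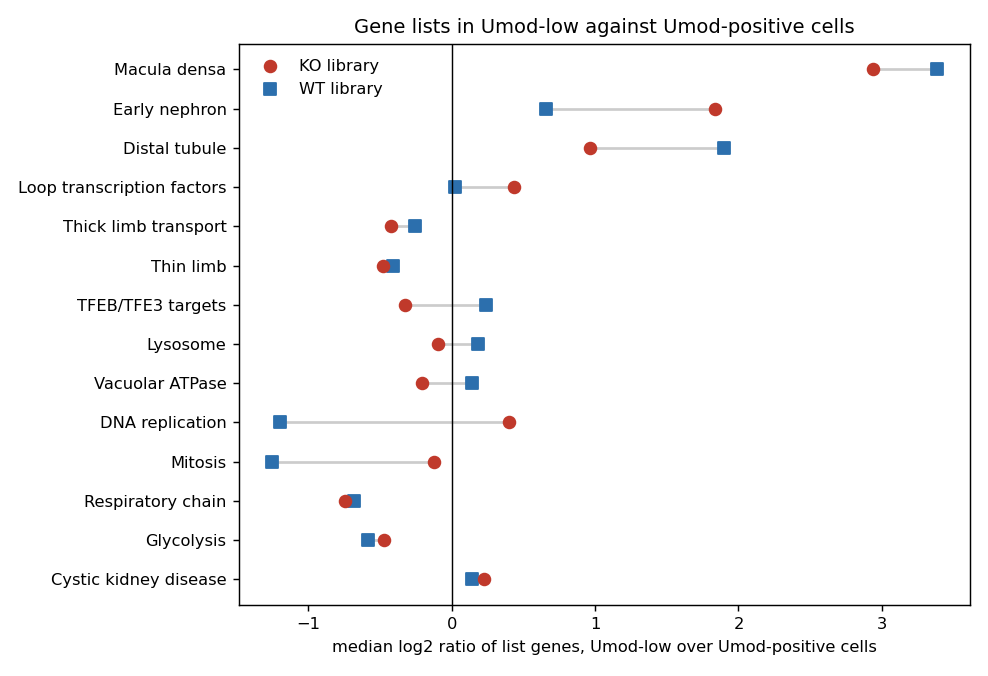
Each row is a gene list, and the points are its median log2 ratio of Umod-low over Umod-positive cells (x axis) in the KO (circles) and WT (squares) library. Macula densa genes lie right of 0 in both (2.94 KO, 3.39 WT), respiratory chain genes are to the left in both (-0.75 KO, -0.68 WT), and DNA replication genes lie on opposite sides of 0 (0.40 KO, -1.20 WT).

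Pappa2 divided the members among themselves. At least 5 Pappa2 UMIs per 10000 were found in 16 of 69 KO members (23.2%, 13.9 to 34.9%) and 30 of 91 WT members (33.0%, 23.5 to 43.6%), against 1 of 167 KO and 2 of 96 WT Umod-positive cells. Near that limit, at 4 to 6 per 10000, lay 4 KO and 4 WT members. After thinning, a Pappa2 UMI was present in 37.7% of 61 KO (25.6 to 51.0%) and 46.8% of 79 WT members (35.5 to 58.4%), in 3.05% of 164 KO and 5.26% of 95 WT Umod-positive cells, and in 0 of 523 KO (up to 0.574% when a count of 0 is taken as under 3 counts) and 0.898% of 334 WT endothelial cells. Unthinned, the member shares were 56.5% in KO and 56.0% in WT. In Pappa2-high cells the level ran up to 36.8 per 10000 in KO and 78.5 in WT. With 1 library per genotype the shares of KO and WT were not compared by a test.

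Dividing cells were counted as well. With at least 10 UMIs of the mitosis list per 10000 there were 13 KO and 15 WT members, and 2 KO and 3 WT of these also passed the Pappa2 limit. Over all members 23.2% of KO and 33.0% of WT passed it. Some dividing members were shallow, down to 1431 UMIs in KO and 1236 in WT. Whether dividing members differ in Pappa2 was not tested. Thinned to 3000 UMIs, 26.2% of 61 KO (15.8 to 39.1%) and 17.7% of 79 WT members (10.0 to 27.9%) had at least 2 mitosis UMIs. The same shares in Umod-positive cells were 21.3% of 164 KO and 40.0% of 95 WT cells, and in endothelium 32.3% of 523 KO and 34.1% of 334 WT cells. Without thinning, 68.1% of KO and 72.5% of WT members had them.

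**Figure D3:**
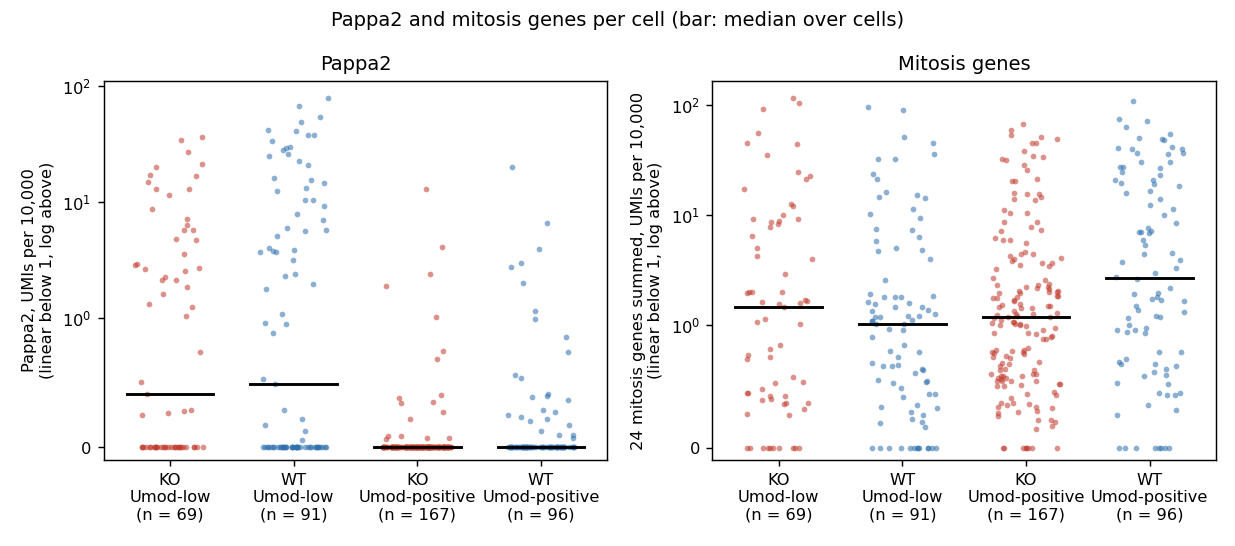
Each point is a cell, with Pappa2 (left) or the 24 mitosis genes summed (right) in UMIs per 10000 (linear below 1, log above), bars at the median over cells. Umod-low cells of both libraries spread from 0 to high Pappa2, with 16 KO and 30 WT cells at 5 or above, against 1 KO and 2 WT Umod-positive cells.

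The main comparison asked how Umod-low cells of the KO library differ from those of the WT library. UMIs were summed over the member cells, 3191685 in KO and 5084416 in WT, and set against nuclear-encoded UMIs. Deep cells weigh most in such sums. Depth ran from 1123 to 215273 UMIs in KO members (upper quartile 67446) and from 1236 to 206037 in WT members (upper quartile 87751). With each cell weighted equally, the respiratory chain, glycolysis and injury medians and the Rragb and Tfec ratios changed sign, as given below. Of 11261 genes with at least 50 UMIs, 1060 (9.41%) were at least 1.5-fold higher and 1244 (11.0%) at least 1.5-fold lower in KO. Of 12026 genes in Umod-positive cells, 12.5% were higher and 14.1% lower. In sums over cells, fewer cells of a type and less RNA of it per cell cannot be told apart.

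Among the folliculin partners Fnip2 stood out, with 810 UMIs (267 CPM) in KO and 238 UMIs (49.4 CPM) in WT, a ratio of 5.40 (4.67 to 6.27). Fnip2 UMIs occurred in 78.3% of KO members and in 61.5% of WT members, and the highest member held 7.91% of its UMIs in KO and 11.3% in WT. Fnip1 had 518 UMIs in KO and 463 in WT, a ratio of 1.77 (1.56 to 2.02). Of the Rag GTPases, which bring mTORC1 to the lysosome, Rragd was at 3.06 (2.71 to 3.45), Rragb at 2.40 (1.57 to 3.69) and Rragc at 1.92 (1.58 to 2.34), while Rraga was at 1.01 (0.822 to 1.24). Of the Ragulator subunits that anchor the Rags, Lamtor1 was at 2.02 (1.76 to 2.33) and Lamtor3 at 1.44, with Lamtor2, Lamtor4 and Lamtor5 between 1.03 and 1.14. With Flcn included, 6 of the 12 genes were at least 1.5-fold higher and none lower, where 13.1% and 16.4% of 15522 genes with at least 10 UMIs were higher and lower. The Rragb ratio came close to 1 when each cell was weighted equally (log2 -0.03).

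The transcription factors that folliculin restrains were nearer to equal at the RNA level. Tfeb had 230 UMIs in KO and 325 in WT (ratio 1.12, 0.944 to 1.33) and Tfe3 52 and 78 UMIs (1.06, 0.730 to 1.52). Mitf was at 0.713 (0.636 to 0.799), and Tfec had 1 UMI in KO and 18 in WT, 72.2% of the WT UMIs in 1 cell and none in either library without cells of another type. Their known targets were higher. Of 19 TFEB and TFE3 targets 11 were at least 1.5-fold higher in KO and none lower, where 13.1% and 16.4% of all 15522 genes were. The median log2 ratio was 0.83, against 0.00 over all 15522 genes. This list shares Flcn, Fnip1, Fnip2, Rragc and Rragd with the one before. Gpnmb, a lysosomal glycoprotein, had 126 UMIs in KO and 9 in WT (ratio 22.2, 11.3 to 49.7), with 47.6% of KO UMIs in 1 cell. A Gpnmb UMI was present in 18.8% of KO and 3.30% of WT members, and at 3000 UMIs per cell in 4.92% of 61 KO members (1.03 to 13.7%) and 0 of 79 WT members. A count of 0, taken as under 3 counts, allows up to 3.80% of WT members with a Gpnmb UMI at that depth, which is no limit on the cells that express it. The endothelial background at that depth was 0 of 523 in KO and 0.299% of 334 in WT. Bhlhe41, a transcriptional repressor of the circadian clock, was at 7.01 (3.70 to 14.4), and Uap1l1, an enzyme related to UDP-N-acetylglucosamine synthesis, at 4.23 (3.23 to 5.59).

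Lysosomal genes followed. Of 44 lysosomal enzymes and membrane proteins 24 were at least 1.5-fold higher in KO and 1 lower, with a median of 0.63. For all 15522 genes the shares were 13.1% higher and 16.4% lower. Hexa, a subunit of beta-hexosaminidase, had 521 UMIs (172 CPM) in KO and 131 UMIs (27.2 CPM) in WT, a ratio of 6.31 (5.2 to 7.7), and UMIs in 71.0% and 60.4% of members. Dpp7, a dipeptidase, was at 5.55 (3.77 to 8.39), Arsa, arylsulfatase A, at 2.90 (1.94 to 4.37) and Grn, progranulin, at 2.87 (2.53 to 3.25). Ctsh, the protease cathepsin H, was the lower one (0.349, 0.238 to 0.501). Of 18 subunits of the vacuolar ATPase, the proton pump that acidifies lysosomes, 9 were at least 1.5-fold higher and none lower (median 0.57). Tcirg1 was at 3.28 (2.27 to 4.79), Atp6v0d2 at 2.10 (1.61 to 2.75), Atp6v1d at 1.87 and Atp6v0c, the proteolipid of the membrane ring, at 1.80. The medians of all 3 lists were smaller than in Umod-positive cells, where they were 1.13, 0.80 and 0.78, and Atp6v0d2 was 9.34-fold higher in KO there. Whether the medians differ between the populations was not tested.

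TFEB and TFE3 bind the E-box CACGTG, best with a flanking T, and 4 promoters of genes higher in KO that hold it are shown here as RefSeq gives them on GRCm38.p6, from 250 bases before to 50 bases after the gene's start, 5′ to 3′ on the gene's strand, with the match to TCACGTG or its reverse complement CACGTGA in capitals.
Fnip1, chr11:54437929-54438228, plus strand: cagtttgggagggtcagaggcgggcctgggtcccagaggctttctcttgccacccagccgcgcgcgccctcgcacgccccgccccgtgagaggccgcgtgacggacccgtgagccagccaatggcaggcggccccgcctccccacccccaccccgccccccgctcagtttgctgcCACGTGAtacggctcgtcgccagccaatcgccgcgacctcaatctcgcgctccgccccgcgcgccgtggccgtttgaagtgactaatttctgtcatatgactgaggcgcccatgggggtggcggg
Rragc, chr4:123917183-123917482, plus strand: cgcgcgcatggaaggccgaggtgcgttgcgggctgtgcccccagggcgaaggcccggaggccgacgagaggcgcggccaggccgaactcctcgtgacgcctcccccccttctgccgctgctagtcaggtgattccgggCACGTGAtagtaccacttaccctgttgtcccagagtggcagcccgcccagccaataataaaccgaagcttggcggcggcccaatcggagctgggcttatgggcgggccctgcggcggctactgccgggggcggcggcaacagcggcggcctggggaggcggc
Dpp7, chr2:25356283-25356582, minus strand: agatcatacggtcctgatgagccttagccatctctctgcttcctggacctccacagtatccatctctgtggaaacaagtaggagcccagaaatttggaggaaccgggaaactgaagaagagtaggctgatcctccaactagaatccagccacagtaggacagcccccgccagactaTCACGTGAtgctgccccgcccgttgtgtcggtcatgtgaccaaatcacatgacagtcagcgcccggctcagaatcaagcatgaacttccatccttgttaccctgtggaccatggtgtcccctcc
Arsa, chr15:89477375-89477674, minus strand: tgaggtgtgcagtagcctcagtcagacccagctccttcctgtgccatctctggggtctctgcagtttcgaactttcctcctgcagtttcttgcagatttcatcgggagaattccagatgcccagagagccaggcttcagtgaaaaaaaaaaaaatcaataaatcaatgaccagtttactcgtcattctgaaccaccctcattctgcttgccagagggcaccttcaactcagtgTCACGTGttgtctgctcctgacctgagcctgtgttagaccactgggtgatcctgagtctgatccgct
In Fnip1 the match began 75 bases before the start, in Rragc 112, in Dpp7 74 and in Arsa 17 bases before it. TCACGTG, searched on both strands, occurred in 1237 of 32851 promoter windows (3.77%), or at 1160 of 27025 genes (4.29%). All 88 folliculin, TFEB target, lysosomal and vacuolar ATPase genes had at least 10 UMIs, but only 70 of them had a window. Among these 70, TCACGTG was present at 17 of the 36 that were at least 1.5-fold higher in KO (47.2%). It was present at 6 of the other 34 (17.6%). Such lists are known partly through this motif, so the counts describe the windows and do not stand as separate evidence. Gpnmb, Hexa and Fnip2 were not among the genes with a match, and whether each of them has a window is not given here. That says nothing of sites elsewhere.

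Salt transport genes went both ways. Leaving out Slc12a1 and Umod, which the rule used, 2 of 23 genes of thick limb transport were at least 1.5-fold higher in KO and 7 lower (median -0.22), where 13.1% and 16.4% of all genes were. Slc12a1, a gene of the rule, had 11472 UMIs (3778 CPM) in KO and 30786 UMIs (6390 CPM) in WT. Wnk1, a kinase that acts on NKCC2 through SPAK, had 718 UMIs in KO and 3483 in WT, a ratio of 0.327 (0.301 to 0.355), with 39.6% of the KO UMIs in 1 cell. Enox1 was at 0.355 (0.328 to 0.385), Ppp1r1a, an inhibitor of protein phosphatase 1, at 0.356 (0.317 to 0.398) and Cldn16, a claudin of paracellular magnesium uptake, at 0.303 (0.239 to 0.381). In Umod-positive cells these 4 were nearer to 1, at 0.74, 0.80, 0.60 and 0.56. Ptger3 was higher in KO, with 1321 UMIs against 656 in WT (ratio 3.20, 2.91 to 3.51) and a like ratio of 3.08 in Umod-positive cells. Cldn14, a claudin that blocks Cldn16 channels, had 40 UMIs in KO and 11 in WT (5.77, 2.91 to 12.5).

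Macula densa genes were lower in KO, 7 of 8 at least 1.5-fold and 1 higher, with a median of -1.30. The shares over all 15522 genes with at least 10 UMIs were 16.4% lower and 13.1% higher. The higher gene, Avpr1a, had 12 UMIs in KO and 12 in WT. The list was lower in other cells too. In Umod-positive cells 5 of 8 genes were lower and none higher (median -1.09), where 19.3% and 15.5% of 16148 genes were. In Slc12a3 distal cells without Slc12a1 (6 KO, 33 WT) 5 of 5 were lower (median -2.06), where 1886 of 9574 genes were lower and 2498 higher. In Umod-low cells Pappa2 had 1471 UMIs in KO and 5718 in WT (ratio 0.408, 0.385 to 0.432), and Robo2 429 and 4314 UMIs (0.158, 0.143 to 0.174). Ptgs2 was at 0.396 (0.311 to 0.499), with 63.7% of its KO UMIs in 1 cell. Nos1 was at 0.255 (0.184 to 0.346), seen in 5 KO and 27 WT members, with 72.9% of the KO UMIs in 1 cell. After thinning, 4.92% of 61 KO members (1.03 to 13.7%) and 11.4% of 79 WT members (5.34 to 20.5%) had a Nos1 UMI. The endothelial background was 0 of 523 in KO and 0.299% of 334 in WT. The same genes were set side by side in the Pappa2-high members alone, 16 KO and 30 WT cells, a split that itself uses Pappa2. There Robo2 was at 0.194 (0.170 to 0.220), Nos1 at 0.401 (0.288 to 0.548) and the list at a median of -1.04 with 6 of 8 genes at least 1.5-fold lower. Of the 22 DNA replication genes 19 had enough UMIs in those cells. Of these, 13 were at least 1.5-fold higher and none lower (median 1.09), where 16.1% of 12411 genes were higher and 14.4% lower. The list summed to 456 CPM in KO and 277 CPM in WT, and the share held by the deepest cells is not given. The mitosis genes in the same cells were lower in 9 of 22 cases and higher in 1 (median -0.25). In Pappa2-low cells 11 of 22 DNA replication genes were lower and none higher, where 2922 of 13301 genes were lower and 1998 higher.

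Genes of the neighbouring segments were mostly lower in KO as well. Of 9 thin limb genes 7 were at least 1.5-fold lower and none higher (median -2.14), where 16.4% and 13.1% of all 15522 genes were. Cryab, the small heat shock protein alpha B-crystallin, had 5 UMIs in KO and 360 in WT (ratio 0.022, 0.00711 to 0.0519), Prox1, a homeobox factor, 17 and 347 UMIs (0.078), Akr1b3, aldose reductase, 141 and 1198 UMIs (0.187) and Aqp1, a water channel, 1 and 46 UMIs. Without cells of another type Aqp1 had 0 UMIs in KO and 3 in WT, and 7 of the 8 thin limb genes still measured were lower (median -2.11). In Umod-positive cells 7 of 9 thin limb genes were lower too and none higher (median -1.01), where 19.3% and 15.5% of 16148 genes were. Of 10 distal tubule genes in Umod-low cells 7 were lower and 1 higher (median -1.39). Of 9 in Umod-positive cells 4 were lower and 4 higher (median -0.49). In Umod-low cells Calb1, the calcium buffer calbindin, had 2 UMIs in KO and 282 in WT, 45.0% of the WT UMIs in 1 cell. Slc12a3, the thiazide-sensitive salt cotransporter, had 9 and 131 UMIs there, 59.5% of the WT UMIs in 1 cell. The factor Sall3 was at 0.307 (0.232 to 0.401), while Trpm7, a magnesium-permeable channel, was at 2.01 (1.88 to 2.16).

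Of 18 transcription factors of the loop 4 were at least 1.5-fold lower in KO and 1 was higher (median -0.45), near the 16.4% and 13.1% of all 15522 genes. When cells of another type were left out, 6 of 18 were lower and 1 higher, where 2370 of 14647 genes were lower and 1932 higher. These shares over all genes stand beside every list count given without cells of another type. Esrrg, a nuclear receptor of mitochondrial genes, had 21942 UMIs (7226 CPM) in KO and 18840 UMIs (3910 CPM) in WT, a ratio of 1.85 (1.81 to 1.88), and was at 0.93 in Umod-positive cells. Foxq1, a forkhead factor, was at 0.132 (0.0991 to 0.173), seen in 9 KO and 48 WT members with 57.9% of the KO UMIs in 1 cell, Pax2 at 0.519 (0.475 to 0.567), Tfcp2l1 at 0.573 (0.538 to 0.611) and Tfap2b at 0.701 (0.657 to 0.749). Of 17 early nephron genes 4 were higher and 2 lower (median -0.24), but without cells of another type 2 of 13 were higher and 6 lower (median -0.55). The list holds the cell cycle regulator Ccnd1 (ratio 2.13, 1.96 to 2.33) and Sox4 (0.544, 0.482 to 0.613).

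**Figure D4:**
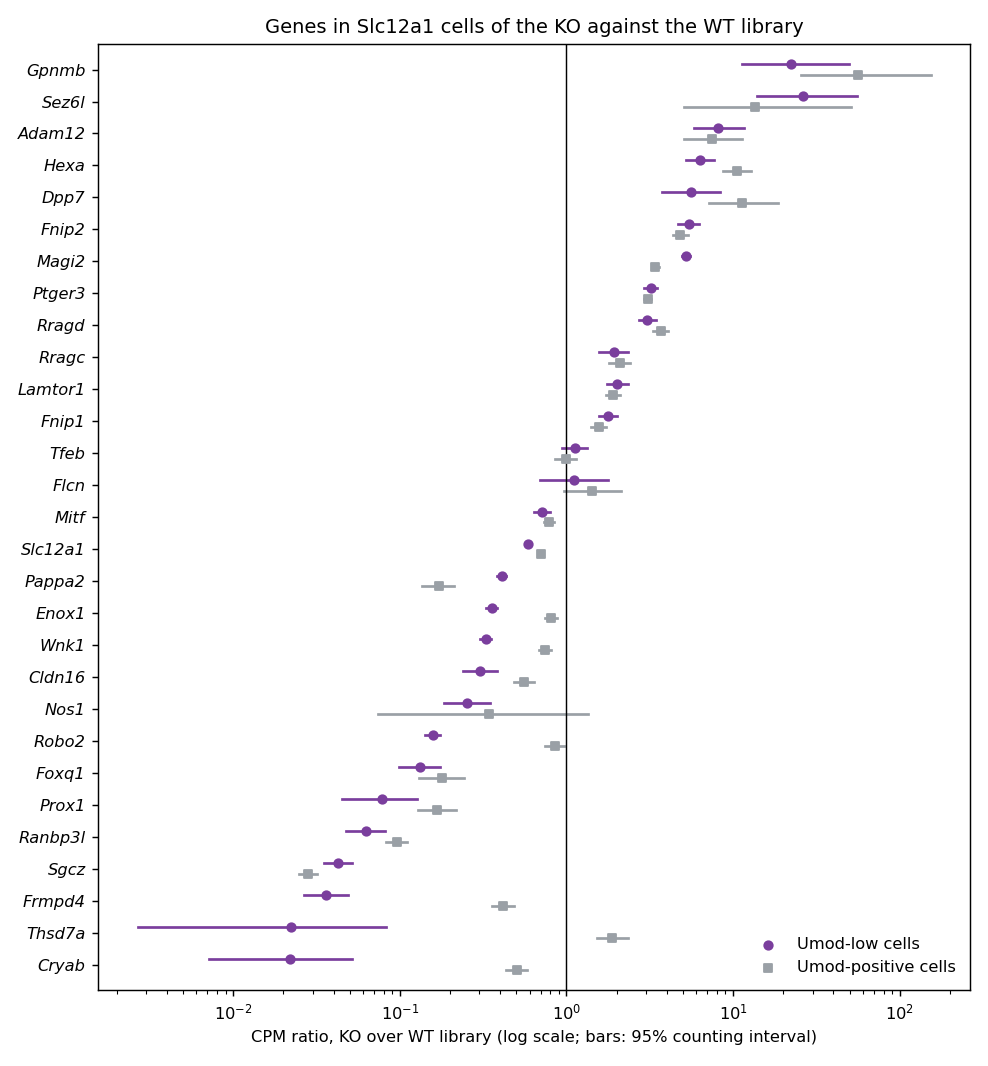
The x axis is the CPM ratio of the KO over the WT library (log scale) for genes named in the text, in Umod-low (circles) and Umod-positive (squares) cells, with bars for 95% counting intervals. Gpnmb (22.2), Hexa (6.31) and Fnip2 (5.40) lie right of 1 in both populations, while Frmpd4 (0.0363 and 0.416), Robo2 (0.158 and 0.849) and Thsd7a (0.0223 and 1.88) stand farther left in Umod-low cells.

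Cell cycle genes were not lower in KO in these cells. Of 22 DNA replication genes 2 were at least 1.5-fold higher and 1 lower (median 0.04), while in Umod-positive cells 21 of 22 were lower (median -1.45). There 15.5% and 19.3% of 16148 genes were higher and lower, and in Umod-low cells 13.1% and 16.4% of 15522 genes were. Of 24 mitosis genes 9 were higher and 1 lower (median 0.45), or 6 higher and 1 lower without cells of another type (median 0.31), against 18 of 24 lower in Umod-positive cells (median -0.73). Hmmr, a spindle protein, was at 2.05 (1.45 to 2.90), Cdc20, an activator of the anaphase-promoting complex, at 2.23 (1.62 to 3.08), and Chaf1b, a chromatin assembly factor of replication, at 2.58 (1.57 to 4.34). In 1 KO cell lay 32.0% of the Cdc20 UMIs. Among members with under 2 mitosis UMIs per 10000 the mitosis median was -0.14, and in members with Pappa2 under 1 per 10000 (37 KO, 50 WT) the DNA replication median was -0.60.

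All 26 of 26 respiratory chain genes had ratios over 1, but only 4 reached 1.5-fold (median 0.37). Among all 15522 genes 13.1% were at least 1.5-fold higher and 16.4% lower, the shares to set beside the counts of this paragraph. Cox5a, a cytochrome c oxidase subunit, had 1211 CPM in KO and 642 CPM in WT (ratio 1.89, 1.80 to 1.98) and Cycs, cytochrome c, 546 and 300.1 CPM (1.82, 1.70 to 1.95). The median was -0.10 when each cell was weighted equally. Of 15 glycolysis genes 3 were higher and none lower (median 0.19, or -0.01 with equal weights), among them the hexokinases Hk1 (1.85) and Hk2 (2.35). Slc2a1, the glucose transporter GLUT1, was at 0.773 (0.667 to 0.895). Of 24 genes of cystic kidney disease 7 were lower and none higher (median -0.23), led by Glis3, a zinc finger factor (0.365, 0.331 to 0.403), with Bicc1, an RNA-binding protein, at 0.576 and Pkhd1, which encodes fibrocystin, at 0.604 (0.575 to 0.635).

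**Figure D5:**
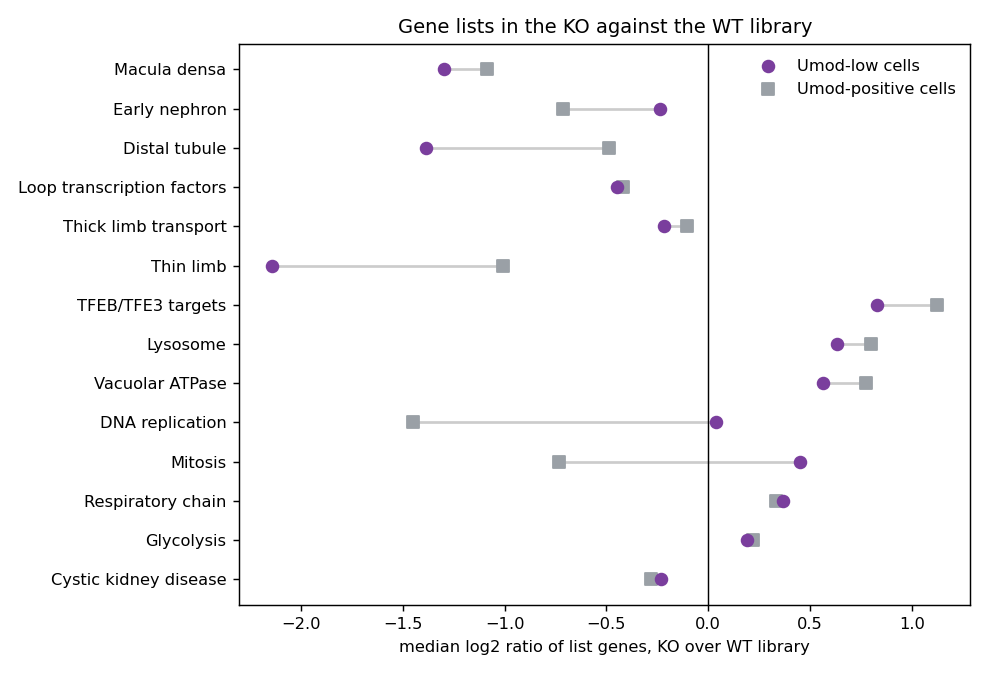
Each row is a gene list, and the points are its median log2 ratio of the KO over the WT library (x axis) in Umod-low (circles) and Umod-positive (squares) cells. TFEB targets, lysosome and vacuolar ATPase lie right of 0 in both (0.83, 0.63 and 0.57 in Umod-low cells), and DNA replication and mitosis lie at 0.04 and 0.45 in Umod-low cells but at -1.45 and -0.73 in Umod-positive cells.

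Beyond the lists, the genes farthest higher in KO that kept their place without cells of another type were led by Sez6l, a neuronal membrane protein, with 165 UMIs in KO and 10 in WT (ratio 26.2, 13.9 to 55.6). Adam12, a metalloprotease, had 215 and 42 UMIs (8.12, 5.81 to 11.6), in 50.7% of KO members and 19.8% of WT members. Slc26a10, of the SLC26 anion transporter family, was at 10.7 (5.63 to 22.3), Lpo, lactoperoxidase, at 9.99 (5.09 to 21.9), and Magi2, a scaffold protein known from the podocyte slit diaphragm, had 4534 UMIs in KO and 1381 in WT (5.21, 4.90 to 5.54). Magi2 made up 98.5% of the podocyte list's UMIs in KO and 71.1% in WT members. The other podocyte genes summed to 22.1 CPM in KO and 116 CPM in WT. Magi2 was also 3.41-fold higher in Umod-positive cells.

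On the low side Sgcz, a sarcoglycan, had 109 UMIs in KO and 4053 in WT (ratio 0.0427, 0.0349 to 0.0516), with 46.8% of the KO and 28.1% of the WT UMIs in 1 cell. At 3000 UMIs per cell 4.92% of 61 KO members and 34.2% of 79 WT members had a Sgcz UMI. Endothelium had it in 2.49% of 523 cells in KO and 3.89% of 334 in WT, so the KO interval (1.03 to 13.7%) includes the endothelial share. Frmpd4, a scaffold protein, had 46 UMIs in KO and 2012 in WT (0.0363, 0.0265 to 0.0486). It was at 0.416 in Umod-positive cells. In WT it was 6.22-fold higher in Umod-low than in Umod-positive cells, and in KO it was at 0.542. Ranbp3l was at 0.0625 (0.0475 to 0.0810), seen in 18.8% of KO and 65.9% of WT members, and Nccrp1 had 3 UMIs in KO and 239 in WT. Nrg3, a neuregulin, had 0 UMIs in KO and 174 in WT, 55.7% of them in 1 cell. Without cells of another type Frmpd4 was at 0.0225 and Ranbp3l at 0.0408, Nccrp1 had 1 UMI in KO and 239 in WT, and Nrg3 had 0 and 171.

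Some large ratios rested on cells of another type. S100a9, abundant in neutrophils, had 536 UMIs in KO and 2 in WT, 47.0% of the KO UMIs in 1 cell, and S100a8 had 312 and 4. All 5 of 5 neutrophil genes were higher in KO, and the list's sum was 306 CPM in KO and 4.77 CPM in WT. Without cells of another type S100a9 was at 1.56 and S100a8 at 2.08. Dcn, a stromal proteoglycan, had 139 UMIs in KO and 6 in WT, 88.5% of the KO UMIs in 1 cell, and was at 0.519 without those cells. Proximal tubule genes, 12 of 14 lower in KO (median -3.59), summed to 120 CPM in KO and 690 CPM in WT. Endothelial genes, 7 of 7 lower, summed to 23.4 and 71.6 CPM. Over all 15522 genes 13.1% were at least 1.5-fold higher and 16.4% lower. Of the fold changes above, those of Fnip2 (6.79), Hexa (6.71), Gpnmb (24.1), Robo2 (0.169) and Pappa2 (0.396) kept their direction without cells of another type, and Sgcz was at 0.00766. Leaving out those cells is an alternative chosen after seeing the data.

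The differences in Fnip2, Hexa and the lysosomal lists occurred in members with and without Pappa2. In Pappa2-high cells (16 KO, 30 WT) Fnip2 was at 5.49 (4.27 to 7.1) and Hexa at 5.18 (3.84 to 7.05), and in cells with Pappa2 under 1 per 10000 (37 KO, 50 WT) at 5.18 (4.18 to 6.43) and 6.74 (4.79 to 9.64). The TFEB target medians were 0.87 and 0.66, and the lysosomal medians 0.70 and 0.56. Gpnmb had few UMIs in both subsets. There were 13 UMIs in KO and 1 in WT in Pappa2-high cells (31.5, 4.73 to 1340). Pappa2-low cells had 8 and 8 UMIs (2.28, 0.746 to 6.97), and the intervals overlap. Most KO Gpnmb UMIs lay in members with Pappa2 between these limits. In the 13 KO and 15 WT dividing members Fnip2 was at 2.12 (1.47 to 3.05) and the TFEB target median was 0.54. Sgcz was mainly a gene of the Pappa2-low cells, with 98 UMIs in KO and 3846 in WT there, against 2 and 59 in Pappa2-high cells. In dividing members it was at 1.66 (1.24 to 2.22), with 90 UMIs in KO and 103 in WT. These KO UMIs came only from a cell at 12.4 and a cell at 12.9 Sgcz UMIs per 10000. Both lacked Pappa2, so their UMIs are also among the 98 of the Pappa2-low cells. Leaving out cells of another type left 19 Sgcz UMIs over all KO members and 3863 over all WT members.

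Set beside Umod-positive cells, several genes had KO over WT ratios on the other side of 1. Ccnd1 had 1235 UMIs in KO and 918 in WT Umod-low cells, but 236 CPM in KO and 860 CPM in WT Umod-positive cells (0.275). Chst8, a sulfotransferase, was at 1.40 (1.20 to 1.63) against 0.214 in Umod-positive cells. In the other direction, Thsd7a, a thrombospondin-domain protein, had 2 UMIs in KO and 142 in WT Umod-low cells, and 378 and 121 UMIs in Umod-positive cells. Unc5d, a netrin receptor, had 14 and 261 UMIs in Umod-low cells, and 55 and 6 in Umod-positive cells. Spp2, a secreted phosphoprotein, had 18 and 247 UMIs in Umod-low cells with 88.9% of the KO UMIs in 1 cell, and 391 and 22 UMIs in Umod-positive cells. Spp2 had 0 UMIs in KO and 10 in WT Umod-low cells without cells of another type. The Umod-positive values were not computed without such cells. The difference between the populations was not tested.

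Of 17 genes of tubule injury 8 were at least 1.5-fold lower in KO and 2 higher (median -0.56, against 0.22 in Umod-positive cells). The counts of this paragraph stand beside 16.4% lower and 13.1% higher over all 15522 genes. Spp1, osteopontin, was at 0.302 (0.282 to 0.323) and 1.06 in Umod-positive cells. Clu, the chaperone clusterin, was at 0.260 (0.210 to 0.318), and Cd44, a hyaluronan receptor, was higher at 3.62 (2.66 to 4.97). Of 15 genes of the dissociation response, which cells can show after enzymatic digestion, 4 were lower and none higher (median -0.31). Of 16 apical, polarity and adhesion genes 2 were higher, Crb3 among them at 1.55 (1.37 to 1.77), and 3 lower (median 0.05). Genes of other lineages had few UMIs: ureteric bud and collecting duct genes, 10 of 12 lower and 2 higher, summed to 48.4 CPM in KO and 189 CPM in WT, and intercalated cell genes, 5 of 5 lower, to 21.1 and 98.2 CPM. Nephron progenitor genes were lower in 4 of 7 cases and higher in 1 (85.0 and 116 CPM), stroma genes higher in 6 of 8 and lower in 1 (447 and 150 CPM; median 1.77, or -0.60 without cells of another type), and mural genes higher in 2 of 6 and lower in 2 (62.6 and 87.0 CPM). Macrophage and immune genes were higher in 4 of 6 and lower in 1 (56.0 and 32.8 CPM), and erythroid genes higher in 3 of 3 (31.3 and 14.5 CPM). Of the 4 MiT/TFE factors 1 was lower, Tfec (median -0.20), and without cells of another type none of the 3 still measured was past 1.5-fold. The part of these cells in the other results was not tested beyond the values without them.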

How the data were processed

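Single-cell RNA-seq (10x, 3′) was made from 1 KO and 1 WT library. Each matrix holds raw UMI counts per gene and barcode, deposited by the authors; per the file headers they were written by Cell Ranger 7.1.0 (KO) and 7.0.0 (WT), and per the submitters' processing notes STAR 2.7.2a, bcl2fastq 2.20.0 and GRCm38/mm10 were used. How introns were counted is not given in the sources used here. Both matrices list 55488 genes.

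Barcodes were kept and members chosen by the limits in the report. The members and the 31 gene lists (430 of 433 genes matched) were chosen with earlier results of these data known. UMIs were summed over member cells of a library and divided by nuclear-encoded UMIs (CPM). KO over WT ratios carry an exact conditional 95% interval for counting error; UMIs in 1 cell are not independent, so the intervals are too narrow for the condition. List medians are log2 ratios with 0.5 UMI added, over genes with at least 10 UMIs. Genes past 1.5-fold with at least 50 UMIs were counted as higher or lower. In the lists, and in the shares over all genes set beside them, the limit was 10 UMIs. Genes to name were ordered by how far the nearer end of the interval lay from 1, among genes with at least 50 UMIs, 20 CPM in 1 library and a UMI in at least 5% and 5 of the members where higher: the highest and lowest KO over WT, Umod-low over Umod-positive and difference between both populations, and the members of each list farthest from 1; every folliculin and MiT/TFE gene and the markers were named too. Depth was matched by thinning cells to 3000 UMIs, which left out 8 KO and 12 WT members. Doublets were scored with Scrublet in scanpy 1.11.5, whose own threshold marked 2 KO and 3 WT barcodes and so did not work; the expected share (0.8% per 1000 barcodes) marked 203 KO and 140 WT barcodes, which were kept. Cells with at least 10 UMIs of the endothelial list and under 5 of Slc12a1 per 10000 served as background. Alternative scalings were computed with edgeR 4.0.16 and DESeq2 1.42.0 in R 4.3.3, and the rest with Python 3.11.15, numpy 2.4.6, scipy 1.17.1, pandas 2.3.3 and matplotlib 3.10.9.

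The ratio script was tested on simulated counts of 11240 genes drawn for the KO over WT comparison. These counts held counting error alone, as the interval assumes, with no variation between cells or animals. The test therefore checks the script and not whether the intervals hold for real cells. The interval held 1 for 95.8% of 11046 unchanged genes, and left out 1 for 80.0% of 70 genes changed 1.5-fold, 95.3% of 64 changed 2-fold and 100% of 60 changed 4-fold.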

Additional observations from a re-analysis of the deposited data

Results flagged for a closer look

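For 8 of the genes ranked by the difference between populations, the KO over WT ratio lay on one side of 1 in Umod-low cells and on the other in Umod-positive cells, with both counting intervals clear of 1. They were chosen for that difference, which is therefore a description. With 1 library per genotype the difference between the populations was not tested. Ccnd1 was at 2.13 in Umod-low and 0.275 in Umod-positive cells. Chst8 was at 1.40 and 0.214. Fabp4, a fatty acid binding protein of endothelium and fat, was at 0.185 and 17.1, and at 1.65 in Umod-low cells once cells of another type were left out. Nlgn1 was at 0.189 and 43.9, and at 0.889 without those cells. Wt1, a podocyte and progenitor factor, was at 0.190 and 11.97, and at 0.673 without them. Such cells were left out of the Umod-low cells only. Among Umod-positive cells, markers of another type reached 10 UMIs per 10000 in 10 of 167 KO and 1 of 96 WT cells. Podocyte genes other than Magi2 summed to 82.5 CPM in KO and 18.4 CPM in WT Umod-positive cells. The Umod-positive ratios were not computed without such cells. Spp2 was at 0.116 and 10.7, Thsd7a at 0.0223 and 1.88, and Unc5d at 0.0851 and 5.51. Without cells of another type Thsd7a was at 0.0328 and Unc5d at 0.0787 in Umod-low cells, and Spp2 had 0 UMIs in KO and 10 in WT, so that most of its WT UMIs came from cells of another type.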

How the results depend on the processing

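No paired analysis was possible because each genotype had 1 library, and no library could be left out. TMM and median-of-ratios scaling shifted all log2 ratios by -0.026 and -0.028. Over all alternatives the TFEB target median stayed between 0.66 and 0.94, the lysosomal between 0.55 and 0.69, the vacuolar ATPase between 0.43 and 0.64 and the macula densa between -1.53 and -1.04. The 13 KO and 15 WT dividing members alone were not among these alternatives. There the TFEB target median was 0.54, the vacuolar ATPase 0.42 and the macula densa -0.01. Of 5 macula densa genes 1 was higher and 2 lower, where 18.0% and 16.9% of 11201 genes were. Pappa2 was at 1.16 (0.920 to 1.46) and Robo2 at 0.136 in those cells. Of 1150 values of 96 genes, 928 stayed within the gene's counting interval, and 37, of 16 genes, were of the opposite sign. Of 377 list medians 351 stayed within the interval of the median over the list's genes, and 32, of 14 lists, were of the opposite sign. The sign changes of values whose interval had left out 0, 11 for genes and 8 for lists, are given next.

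The respiratory chain median was 0.457 at no more than 10% mitochondrial UMIs, 0.425 at Slc12a1 of at least 10 per 10000, 0.434 without cycling cells, 0.488 at Pappa2 under 1 per 10000 and -0.10 as a mean over cells. As a mean over cells the glycolysis median was -0.0083, transport -0.70, injury 0.15, Rragb -0.031, Tfec 2.46, and 1927 genes were called higher. At Slc12a1 of at least 10 per 10000, the KO share of kept barcodes was 1.05%. At Umod under 1 per 10000 the WT share of kept barcodes was 1.70% and of Slc12a1 cells 38.0%, and the DNA replication median was 0.70, mitosis 0.77, endothelium 0.83 and Fabp4 0.74. Without marked doublets endothelium was 0.58 and Fabp4 0.72. Without cycling cells mitosis was -0.14, endothelium 0.057, Dcn -1.29, Fabp4 0.83 and Wt1 1.26 (log2). Without cells of another type endothelium was 0.013, Dcn -0.58 and Fabp4 0.72, and at Pappa2 under 1 per 10000 DNA replication was -0.60. Kcnj1 was 0.024 at no more than 10% mitochondrial UMIs and 0.0022 at Pappa2 under 1 per 10000. With 10 UMIs per gene 2040 genes were higher and 2545 lower. The cause of these changes was not tested.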
